A study of Mus musculus with 6 samples.

Results

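Microexons are very short internal exons that can be spliced into or left out of an mRNA. Here they were taken as the cassette exons of 30 bases or fewer in the table of skipped-exon events that was made from ventricles of newborn mice. The rule gave 601 distinct exons in 506 genes out of 24641 distinct exons in the table, and these appear in 689 of its 28280 events, since an exon can be listed with several pairs of neighbours. The rule used length alone, so neither the inclusion values nor the difference between genotypes entered the choice. All 601 matched an exon of the GENCODE M21 annotation of GRCm38.

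The study compared 3 wild-type (WT) libraries with 3 libraries from mice lacking Rbpms (Rbpms KO), all of C57BL6 background, taken from the ventricle on postnatal day 1 and labelled as biological replicates. Polyadenylated RNA was made into strand-specific libraries and sequenced. The labels do not say how many animals entered a library, how the Rbpms allele was made or whether it is lost in all cells, so every p-value below measures only the spread between these libraries.

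Microexons are too short to be recognised by the splicing machinery in the way longer exons are, and their inclusion depends strongly on regulatory proteins bound in the neighbouring introns. They are known best from neurons, where a large programme of them inserts a few amino acids into proteins of the synapse and cytoskeleton, and heart and skeletal muscle have a smaller set of their own in proteins of the sarcomere, calcium handling and cell adhesion. RBPMS binds RNA through an RNA recognition motif and is known as a regulator of alternative splicing in heart and smooth muscle. RBPMS2 is its close paralogue.

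The splicing table holds 3 libraries in each of 2 sets, and its headers give neither the genotype of a set nor the replicate number of a library. The sets are therefore named by their reads at Rbpms itself. Summed over the 15 skipped-exon events of Rbpms, in which a read can count more than once, the first set had 3420, 3838 and 3985 junction reads and the second had 40, 22 and 14, and they are called the expressing set and the depleted set, with libraries numbered in the order listed. In the table of gene levels, whose columns carry the genotype, Rbpms was at 33.1, 35.7 and 38.1 RPKM (reads scaled by gene length and library size) in WT and at 0.594, 0.276 and 0.240 RPKM in Rbpms KO (log2 change -5.40, SE 0.15, limma Benjamini-Hochberg adjusted p = 5.31e-06). Its paralogue Rbpms2 was at 35.6, 36.8 and 40.1 RPKM in WT and at 16.3, 23.7 and 22.7 RPKM in Rbpms KO (log2 change -0.84, SE 0.14, adjusted p = 0.0127). When WT replicate 1 or 2 was left out, Rbpms2 was no longer called (adjusted p of up to 0.0645).

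Counting 1 event per exon, the libraries held 3719758 to 3888647 junction reads in the expressing set and 3111820 to 3347474 in the depleted set. Of these, 85297 to 90239 and 70854 to 81003 fell on microexon events. Heart muscle genes were high in every library: the 8 listed summed to 7870 to 8660 RPKM in the WT libraries and to 6850 to 8190 RPKM in Rbpms KO. Within that list Myh7 rose from 518 ± 65.5 to 836 ± 83.8 RPKM (SD, n = 3 each, limma adjusted p = 0.0162), and the call was lost without WT replicate 1 or 2 (up to 0.088). Myh6 fell from 2020 ± 103 to 1290 ± 251 RPKM (limma adjusted p = 0.0362), and the call was lost without any 1 library other than Rbpms KO replicate 2 (up to 0.15). Some markers of other cells also moved with genotype. Over all genes tested, 3.99% fell and 2.38% rose. The 6 airway secretory genes summed to 646 to 901 RPKM in the WT libraries and to 0.493 to 19.3 RPKM in Rbpms KO. Of these, 6 of 6 fell. The call of Cyp2f2, 1 of the 6, was lost without any 1 library other than Rbpms KO replicate 1 (limma adjusted p of up to 0.115). The 4 smooth muscle genes summed to 842 to 994 RPKM in WT and 172 to 252 in Rbpms KO, with 3 of 4 fallen. Acta2 made up most of these sums (means of 875 and then 197 RPKM), and Tagln was not called (limma adjusted p = 0.223). Of 10 neuronal genes, 7 were matched, and they summed to 9.80 to 11.8 RPKM and 8.24 to 8.67 RPKM, with 2 of the 5 tested fallen. Gap43 was the largest part of these sums and was not called (means of 5.91 and then 6.59 RPKM). The other matched genes all had lower means in Rbpms KO, and the median log2 change of those tested was -0.62. The fallen genes were Tubb3 (mean 1.54 to 0.466 RPKM) and Nefl (mean 0.72 to 0.13 RPKM). Tubb3 lost its call without WT replicate 1 or 2, and Nefl without WT replicate 2. Of 3 endothelial genes, Pecam1 rose from 41.4 ± 4.12 to 59.6 ± 5.59 RPKM (limma adjusted p = 0.0239), a call lost without WT replicate 1 or 2 or Rbpms KO replicate 2 (up to 0.125). Cdh5 and Kdr were not called (limma adjusted p = 0.387 and 0.779). None of the 3 fibroblast genes or the 5 tested skeletal muscle genes was called. The 3 blood genes summed to 529 to 1650 RPKM in WT and 482 to 670 in Rbpms KO, with WT replicate 3 apart from the rest (Hbb-bs at 1620 RPKM against 516 and 604), and none was called. In bulk tissue fewer cells of a type, less RNA per cell and a difference in the tissue taken with a sample cannot be told apart. The part of these differences or of depth in the inclusion values below was not tested.

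The microexons on which the results turn are printed here from the GENCODE M21 transcripts, 5′ to 3′ on the strand of the gene. Capitals mark the microexon, and lower case marks 15 bases on either side in a spliced transcript of the annotation, so each join of capitals and lower case is a splice junction. The Tnnt2 pair sits at the same place in the mRNA, and the Nav1 and Nav2 exons are set side by side because the genes are paralogues. Rps24 is shown without neighbours.
Tnnt2 30-base exon (chr1:135843785-135843814, plus strand): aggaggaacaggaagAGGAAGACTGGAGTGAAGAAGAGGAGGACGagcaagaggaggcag
Tnnt2 12-base exon (chr1:135842015-135842026, plus strand): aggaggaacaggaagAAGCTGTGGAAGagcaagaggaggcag
Pdlim5 15-base exon (chr3:142306284-142306298, minus strand): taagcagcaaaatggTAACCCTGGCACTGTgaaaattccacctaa
Ryr2 21-base exon (chr13:11903218-11903238, minus strand): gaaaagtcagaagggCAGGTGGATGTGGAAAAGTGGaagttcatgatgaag
Ncam1 30-base exon (chr9:49550540-49550569, minus strand): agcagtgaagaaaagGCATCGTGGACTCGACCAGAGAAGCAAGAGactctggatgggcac
Lama2 12-base exon (chr10:27021461-27021472, minus strand): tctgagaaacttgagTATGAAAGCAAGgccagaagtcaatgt
Col4a5 9-base exon (chrX:141658532-141658540, plus strand): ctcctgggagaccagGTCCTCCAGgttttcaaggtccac
Tmed2 21-base exon (chr5:124543487-124543507, plus strand): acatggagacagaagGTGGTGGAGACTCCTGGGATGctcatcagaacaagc
Rps24 18-base exon (chr14:24494052-24494069, plus strand): AAATGAAATACCTAGCAG
Nav1 9-base exon (chr1:135457861-135457869, minus strand): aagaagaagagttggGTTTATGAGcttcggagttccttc
Nav2 9-base exon (chr7:49575247-49575255, plus strand): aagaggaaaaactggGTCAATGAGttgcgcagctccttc

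The question put to the table is whether the inclusion of microexons differed between the sets. Inclusion level is the share, corrected for length, of junction reads that enter the exon rather than skip it, from 0 to 1. A microexon was tested when it had a level in all 6 libraries, a mean of at least 10 junction reads per library and a mean level from 0.05 to 0.95. Of the 601, 61 lacked a level in at least 1 library and 125 had too few reads. Another 129 were included at a mean level above 0.95, with differences from -0.057 to 0.051, and 82 were included at a mean level below 0.05, with differences from -0.069 to 0.078. The remaining 204, in 184 genes, were tested together with the longer exons by limma, with Benjamini-Hochberg adjustment over all 4546 tested exons.

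In the depleted set 17 microexons of 16 genes differed from the expressing set at an adjusted p below 0.05, 6 of them higher and 11 lower. Over all tested exons 1.89% were called, 0.792% higher and 1.1% lower, whereas the 17 were 8.33% of the tested microexons. Tested exons over 30 bases had 69 calls of 4342, which is 1.59%. The 17 lie in genes of the sarcomere and Z-disc (Tnnt2, Pdlim5, Ldb3), calcium channels (Ryr2, Cacna2d1), the matrix and cell adhesion (Col4a5, Lama2, Ncam1, Ptprk), transport in the cell (Tmed2, Dctn4, Clec16a), the ribosome (Rps24), lipid signalling (Inpp4a), microtubules (Nav1) and Tmem184b. Their differences ran from -0.405 to 0.668 with a median size of 0.259, and the smallest was 0.063. In all 17 the levels of the sets did not overlap. Non-overlapping levels were seen in 50 of the 204 microexons (24.5%) and in 13.9% of all tested exons.

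**Figure D1:**
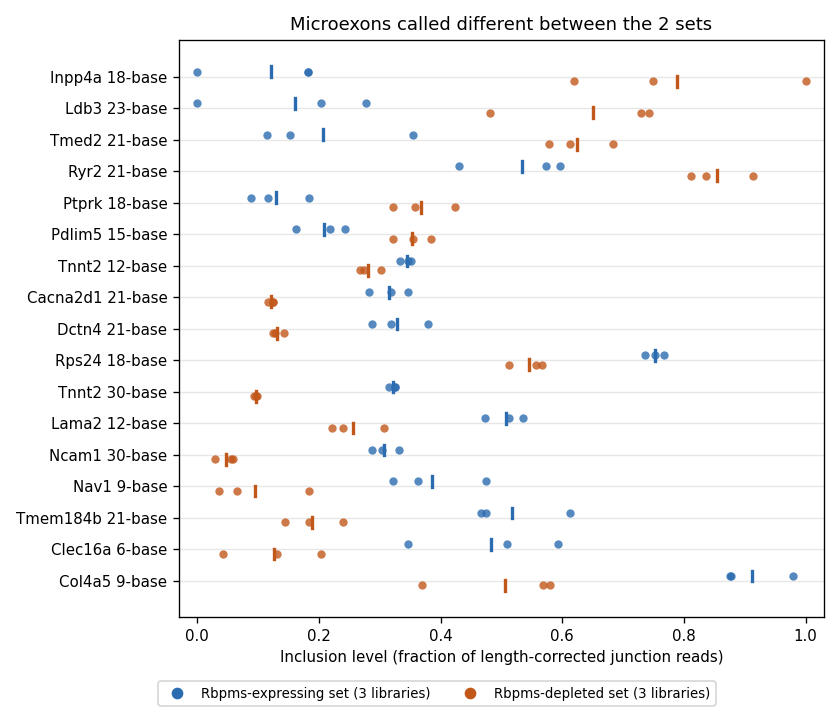
Inclusion level (0 to 1) of each of the 17 called microexons, with 1 point per library of the expressing (blue) and the depleted (orange) set and a vertical tick at each mean. The sets are apart in every row, and the exons run from top to bottom from Inpp4a, higher by 0.668 in the depleted set, to Col4a5, lower by 0.405.

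Cardiac troponin T (Tnnt2, ENSMUSG00000026414), the tropomyosin-binding subunit of troponin, held the most precisely measured change. Its 30-base exon, known as an exon of the embryonic heart isoform, was included at 0.316, 0.325 and 0.325 in the expressing set and at 0.093, 0.096 and 0.099 in the depleted set. The libraries of a set lay close together, and all 3 depleted libraries were far below all 3 expressing ones. The means were 0.322 ± 0.0052 and 0.096 ± 0.003 (SD, n = 3 each), a difference of -0.226 (SE 0.00858, limma adjusted p = 6.17e-08) on a mean of 4230 reads per library. In the event listed with the 12-base exon as the upstream neighbour, the same exon was at 0.521, 0.518 and 0.545 against 0.228, 0.214 and 0.218. The adjacent 12-base exon was at 0.347, 0.352 and 0.334 in the expressing set and at 0.302, 0.274 and 0.267 in the depleted set, lower in every depleted library by a far smaller amount (difference -0.063, SE 0.0108, adjusted p = 0.00883). Its call held in 2 of the 6 fits that left out a library, with an adjusted p of up to 0.211. In its event with the 30-base exon as the downstream neighbour, the 12-base exon was at 0.664, 0.676 and 0.675 against 0.721, 0.592 and 0.560. There depleted library 1 was above every expressing library, and the difference of -0.047 was not called when every event was fitted (adjusted p = 0.695). The 30-base and the 12-base values share the reads of a single skipping junction, for example 3092 in the first expressing library, so they are not independent.

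Other Tnnt2 microexons did not show such a difference. The 9-base exon, with 20100 reads per library, was at 0.089, 0.087 and 0.064 in the expressing set and at 0.102, 0.086 and 0.085 in the depleted set, with overlapping levels (difference 0.011, adjusted p = 0.736). The 11-base exon just upstream of the pair was at a mean level of 1.0 in each set. Tnnt2 as a gene was at 1170, 1000 and 938 RPKM in WT and at 887, 1020 and 1040 RPKM in Rbpms KO (log2 change -0.08, adjusted p = 0.73).

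Pdlim5 (ENSMUSG00000028273) and Ldb3 (ENSMUSG00000021798) encode PDZ-LIM proteins of the Z-disc, which anchors the thin filaments. The 15-base exon of Pdlim5 was included at 0.243, 0.218 and 0.163 in the expressing set and at 0.322, 0.355 and 0.384 in the depleted set. Every depleted library was above every expressing library (difference 0.146, SE 0.0224, adjusted p = 0.00416, 754 reads per library). The call was lost without expressing library 2 or depleted library 2 or 3, with an adjusted p of up to 0.176. This event is the one with most reads. In another, in which the exon was nearly always included and the mean level was above the range tested, it was lower in the depleted set, at 0.967, 1.000 and 1.000 against 0.924, 0.938 and 0.951. The neighbouring 18-base exon of Pdlim5 was at 0.900 ± 0.0291 and 0.924 ± 0.00462 (SD, n = 3 each), a difference of 0.025 that was not called (adjusted p = 0.728).

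Another short exon of Pdlim5, of 17 bases (chr3:142309528-142309544, minus strand), was nearly silent in the expressing set. In the event in which the 15-base exon is its neighbour, it had 0, 0 and 0 inclusion reads in the expressing set, beside 151, 130 and 127 skipping reads, and 35, 42 and 35 in the depleted set, beside 159, 254 and 264. All inclusion reads of that event thus came from the depleted set, at levels of 0.153, 0.120 and 0.098. A count of 0 allows an inclusion share of up to 1.99%, 2.31% and 2.36% of the reads of the 3 expressing libraries, by counting error only. The event with most reads, used for the exon elsewhere here, had levels of 0.010, 0.006 and 0.007 in the depleted set and 0 in the expressing set, where the reads allow a share of up to 0.622%. It was below the range of mean levels tested. In a further event the expressing set had 1, 0 and 0 inclusion reads, beside 0, 0 and 2 skipping reads. The depleted set had 37, 46 and 33 inclusion reads there, beside 0, 0 and 1 skipping reads. The event with the 15-base neighbour was among those fitted when every event was used (difference 0.124, limma adjusted p = 0.0209). Its mean level entered the tested range only through the depleted set. The 17-base exon was singled out after its values were seen. Its values are a description, and no difference is claimed from that fit.

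The 23-base exon of Ldb3 (chr14:34572990-34573012, minus strand) was the only called exon whose length is not a multiple of 3. It was at 0.204, 0.278 and 0.000 in the expressing set and at 0.730, 0.743 and 0.481 in the depleted set. All depleted libraries were above all expressing ones, on a mean of only 13.8 reads per library (difference 0.491, SE 0.103, adjusted p = 0.0358). The 0 in the third expressing library rests on 12 reads and allows a share of up to 25%. The call was lost in each of the 6 fits that left out a library, with an adjusted p of up to 0.246.

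The cardiac ryanodine receptor (Ryr2, ENSMUSG00000021313) is the channel that releases calcium from the sarcoplasmic reticulum. Its 21-base exon was included at 0.430, 0.596 and 0.574 in the expressing set and at 0.812, 0.836 and 0.914 in the depleted set. The lowest depleted library was well above the highest expressing one (difference 0.321, SE 0.0468, adjusted p = 0.00311, 95.8 reads per library). The call was lost without expressing library 2 or depleted library 2 or 3, with an adjusted p of up to 0.142. The next exon downstream in Ryr2 is also a microexon, of 15 bases (chr13:11890834-11890848), and its level was 0.775 ± 0.138 and 0.822 ± 0.0933 (SD, n = 3 each), which was not called (adjusted p = 0.917). A 24-base exon of Ryr2 was nearly always skipped, at mean levels of 0.034 and 0.029.

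Cacna2d1 (ENSMUSG00000040118) encodes an auxiliary subunit of voltage-gated calcium channels. Its 21-base exon (chr5:16341990-16342010, plus strand) was at 0.347, 0.319 and 0.282 in the expressing set and at 0.125, 0.124 and 0.117 in the depleted set. The depleted libraries were tightly grouped and below all expressing ones (difference -0.194, SE 0.0358, adjusted p = 0.0145). The call held in 1 of the 6 fits that left out a library, with an adjusted p of up to 0.144.

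Of the called exons in genes of the matrix and cell adhesion, those of Col4a5, Lama2 and Ncam1 were lower in the depleted set and that of Ptprk was higher. Col4a5 (ENSMUSG00000031274) encodes a chain of type IV collagen, the network-forming collagen of basement membranes. Its first 9-base exon was at 0.878, 0.876 and 0.980 in the expressing set and at 0.580, 0.569 and 0.370 in the depleted set (difference -0.405, SE 0.0628, adjusted p = 0.0044, 42.7 reads per library). The exon was close to always included in the expressing libraries and near an even split in the depleted ones. The next exon is another 9-base exon (chrX:141664676-141664684), which was at 1.000, 1.000 and 0.474 against 0.340, 0.272 and 0.515 and was not called, with overlapping levels (adjusted p = 0.141). Leaving out a library left the call of the first exon in 1 of 6 fits, with an adjusted p of up to 0.134.

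Lama2 (ENSMUSG00000019899) encodes the laminin chain of the muscle basement membrane. Its 12-base exon was at 0.512, 0.536 and 0.473 in the expressing set and at 0.239, 0.222 and 0.307 in the depleted set. No depleted library reached an expressing one (difference -0.251, SE 0.0378, adjusted p = 0.00363, 79.2 reads per library), and the call held in 3 of 6 fits that left out a library, with an adjusted p of up to 0.099.

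The neural cell adhesion molecule (Ncam1, ENSMUSG00000039542) is an immunoglobulin-family adhesion protein also present in developing heart muscle, and its 30-base exon is known as VASE. Inclusion was 0.287, 0.332 and 0.303 in the expressing set and 0.055, 0.030 and 0.059 in the depleted set. The exon was thus rare in each depleted library (0.307 ± 0.0228 against 0.048 ± 0.0157, SD, n = 3 each), a difference of -0.259 (SE 0.0259, adjusted p = 2.21e-04) on 164 reads per library. The call held whichever library was left out, with an adjusted p of up to 0.0241. Ncam1 as a gene was at 18.4 ± 1.36 RPKM in WT and, in Rbpms KO, at 18.2 ± 0.758 RPKM (log2 change -0.02, adjusted p = 0.927).

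The receptor tyrosine phosphatase gene Ptprk (ENSMUSG00000019889) went the other way. Its 18-base exon (chr10:28570174-28570191, plus strand) was at 0.089, 0.117 and 0.183 in the expressing set and at 0.423, 0.322 and 0.358 in the depleted set. All 3 depleted libraries were above the expressing ones (difference 0.238, SE 0.0442, adjusted p = 0.0149, 60.2 reads per library). The call held in 1 of 6 fits that left out a library, with an adjusted p of up to 0.198.

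In genes that most cells use, the ribosomal protein gene Rps24 (ENSMUSG00000025290) was the most deeply read. Its 18-base exon, partly coding by the annotation, was at 0.753, 0.768 and 0.736 in the expressing set and at 0.513, 0.557 and 0.566 in the depleted set. Each set was narrow, and they were far apart (difference -0.207, SE 0.0156, adjusted p = 3.08e-05, 1630 reads per library). The call held in all 6 fits that left out a library, with an adjusted p of up to 0.0241. In the other event of this exon, with the same upstream and another downstream neighbour, the levels were 0.546, 0.521 and 0.523 against 0.422, 0.480 and 0.468. There too the sets did not overlap, but the difference was only -0.073 and was not called when every event was fitted (adjusted p = 0.101). Ribosomal protein genes have many processed copies in the genome, and how reads that match several places were handled is not given in the sources used here.

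Tmed2 (ENSMUSG00000029390) encodes a cargo receptor of vesicles between the endoplasmic reticulum and the Golgi. Its 21-base exon was at 0.355, 0.114 and 0.153 in the expressing set and at 0.612, 0.683 and 0.579 in the depleted set. The exon was mostly skipped in the expressing set and mostly included in the depleted set, though the first expressing library stood above the others (difference 0.417, SE 0.0525, adjusted p = 0.00119, 210 reads per library). The call was lost without expressing library 2 or depleted library 2 or 3, with an adjusted p of up to 0.099.

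The other called exons had means of 10 to 71.3 reads per library, and none of their calls held in more than 2 of the 6 fits. The 18-base exon of the phosphoinositide phosphatase gene Inpp4a (ENSMUSG00000026113, chr1:37374272-37374289) was at 0.000, 0.182 and 0.182 in the expressing set and at 0.619, 0.749 and 1.000 in the depleted set. This was the widest difference of the 17, 0.668 (SE 0.116, adjusted p = 0.00984, up to 0.141 with a library left out), and it rests on 10 reads per library, so that the 0 came from 8 reads and allows a share of up to 37.5%. The 21-base exon of Dctn4 (ENSMUSG00000024603), a subunit of dynactin, was at 0.288, 0.379 and 0.318 against 0.124, 0.128 and 0.142, lower in every depleted library (difference -0.197, SE 0.0379, adjusted p = 0.0193, up to 0.159).

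The 6-base exon of Clec16a (ENSMUSG00000068663, chr16:10572918-10572923), a gene of mitophagy and endosomal transport, was the shortest called. It was at 0.509, 0.346 and 0.593 against 0.043, 0.131 and 0.203, lower in every depleted library (difference -0.357, SE 0.0721, adjusted p = 0.0272, up to 0.226 with a library left out). The 21-base exon of Tmem184b (ENSMUSG00000009035, chr15:79363658-79363678) was at 0.467, 0.612 and 0.474 against 0.144, 0.184 and 0.239 (difference -0.329, SE 0.0727, adjusted p = 0.0449, up to 0.232). No depleted level of this transmembrane protein's exon reached an expressing one.

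Nav1 and Nav2 encode paralogous neuron navigators, which bind microtubules. The 9-base exon of Nav1 (ENSMUSG00000009418) was at 0.322, 0.474 and 0.363 in the expressing set and at 0.036, 0.065 and 0.184 in the depleted set (difference -0.291, SE 0.0658, adjusted p = 0.0490, up to 0.318 with a library left out). The corresponding 9-base exon of Nav2 was at 0.872, 0.968 and 0.906 against 0.812, 0.757 and 0.724, lower in each depleted library but not called (difference -0.151, adjusted p = 0.198). The exons share 7 of 9 bases and differ by T3C and T4A, with the Nav1 base first and positions counted from the 5′ end of the exon. Nav2 was chosen for this comparison after its values were seen.

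Next in size among microexons whose sets did not overlap, and not called, were a 12-base exon of the membrane adaptor ankyrin-G (Ank3), a 28-base exon of Nktr and a 21-base exon of the junction protein afadin (Afdn). Ank3 was at 0.249, 0.635 and 0.442 against 0.881, 0.649 and 0.905 (difference 0.37, adjusted p = 0.118). Nktr was at 0.594, 0.594 and 0.506 against 0.675, 0.880 and 0.880 (difference 0.247, adjusted p = 0.228). Afdn was at 0.470, 0.751 and 0.601 against 0.876, 0.872 and 0.784 (difference 0.237, adjusted p = 0.207).

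By length, the calls were spread over the range. They were 3 of 26 tested exons of 1 to 9 bases (11.5%, all lower in the depleted set), 3 of 35 of 10 to 15 bases (8.57%), 8 of 43 of 16 to 21 bases (18.6%), 1 of 68 of 22 to 27 bases (1.47%) and 2 of 32 of 28 to 30 bases (6.25%). Just outside the limit, 4 of 47 tested exons of 31 to 33 bases were called (8.51%, 1 higher and 3 lower). The share called did not drop at the limit of 30 bases, and the classes are small. No exon of 24 or 27 bases was called, of 28 and 26 tested.

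**Figure D2:**
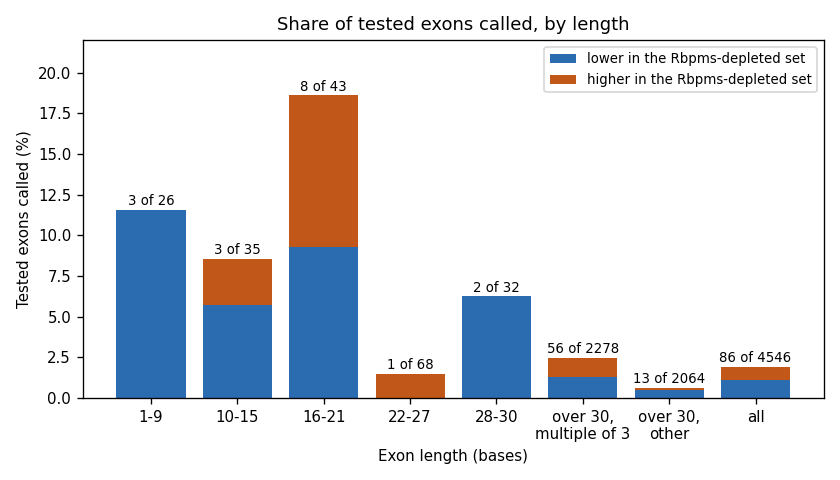
Percent of tested exons called (limma adjusted p below 0.05) by exon length class in bases, split into those lower and those higher in the depleted set, with longer exons and all 4546 tested exons (1.89%) beside them. The class of 16 to 21 bases has the tallest bar at 18.6%, and the class of 22 to 27 bases lies at 1.47%.

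Most microexons keep the reading frame. Of the 601, 459 had a length that is a multiple of 3 (76.4%), against 43.1% of the exons over 30 bases. Among those tested the shares were 88.2% and 52.5%. Of 180 tested microexons that are a multiple of 3, 16 were called (8.89%, 5 higher and 11 lower), and of 24 that are not, 1 was called (4.17%). For longer exons the shares called were 2.46% of 2278 and 0.63% of 2064. By the annotation 521 of the 601 lie wholly within coding sequence, 16 partly, 22 in untranslated regions and 30 in non-coding transcripts. Another 9, among them the 28-base exon of Nktr, are coding only in nonsense-mediated decay or similar transcripts, and 3 lie in other transcripts. Of the 17 called, 16 are coding and 1, in Rps24, is partly coding. The 15 that are coding and a multiple of 3 hold 0 in-frame stop codons.

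Tested microexons were included less often than longer exons, with a median level of 0.452 in the expressing set and 0.441 in the depleted set against 0.817 and 0.805. Depth was close to equal, with a median of 30.5 reads per library for microexons and 29.7 for longer exons, and so was the median SE of the difference (0.064 and 0.066). The median difference was 0.004 over the 204 microexons and -0.006 over all tested exons, so both medians lay close to 0. The sizes were larger, with no test of it: the median size of the difference was 0.062 against 0.048, and 69 microexons (33.8%) differed by 0.1 or more against 23.7% of all tested exons. At an unadjusted p below 0.05 there were 44 of the 204 microexons and 450 of the 4546 exons. Introns beside tested microexons were somewhat shorter, with medians of 1362 bases upstream and 1864 downstream against 1974 and 1991 for longer exons. Among exons with at least 50 reads per library, a limit chosen after the data were seen, 11 of 67 microexons (16.4%) and 56 of 1309 longer exons (4.28%) were called.

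**Figure D3:**
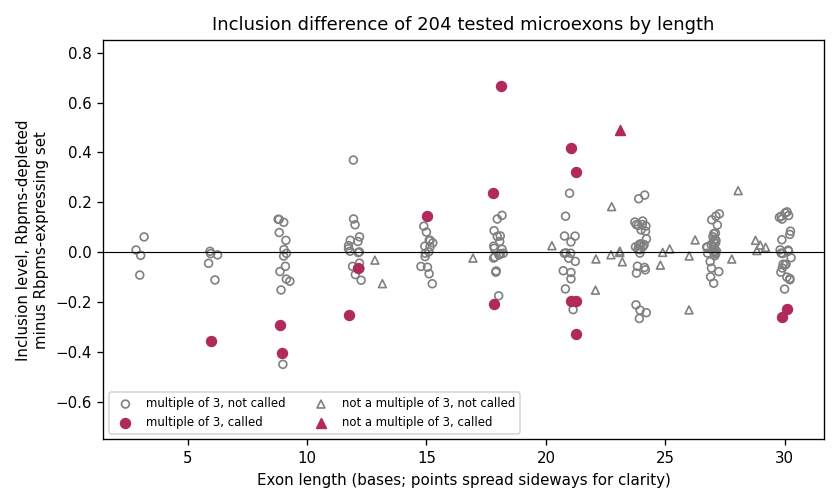
Difference in inclusion level (depleted minus expressing, y axis) against exon length in bases (x axis) for the 204 tested microexons, with called ones filled and those whose length is not a multiple of 3 as triangles. Called microexons lie on both sides of 0, from -0.405 to 0.668.

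Between single libraries the 204 levels varied widely. The SD of the level difference between a pair of libraries was 0.125 to 0.148 within a set and 0.164 to 0.182 between sets. In the depleted set libraries 2 and 3 were the closest pair (0.125), against 0.145 and 0.148 for the pairs with library 1. In the expressing set libraries 1 and 2 were at 0.125, and the pairs with library 3 were at 0.133 and 0.133. The median microexon level was 0.442, 0.457 and 0.428 in the expressing libraries and 0.459, 0.438 and 0.479 in the depleted ones, and these overlap.

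A list of 57 genes known to carry microexons in brain or striated muscle gave 37 tested microexons in 24 genes. Of these 4 were called (10.8%, close to the 8.33% of all tested microexons), the 2 of Tnnt2 lower and those of Pdlim5 and Ryr2 higher, with a median difference of -0.003 over the 37. Others of the list, given here as means in the expressing and then the depleted set, were not called. The 24-base exon of the muscle transcription factor gene Mef2a had means of 0.794 and 0.791, and the 21-base exon of Mef2d had 0.343 and 0.307. The 18-base exon of Macf1, a crosslinker of actin and microtubules, had 0.810 and 0.805, and the 21-base exon of the dynactin gene Dctn1 had 0.629 and 0.625. The 24-base exons of Clasp1, of the microtubule plus end, and Picalm, of endocytosis, had 0.907 and 0.847, and 0.162 and 0.107. Among larger differences that were not called, the 12-base exon of Ank3 had 0.442 and 0.812, and the 9-base exon of Ptk2 had 0.086 and 0.218. The 24-base exon of Ank2 had 0.278 and 0.389, and the 9-base exon of Ptprd had 0.116 and 0.000.

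Levels of the host genes were tested apart from splicing, as log2(RPKM + 0.5) with limma in the labelled WT and Rbpms KO columns. Of 183 host genes tested, 10 were called (5.46%), 5 higher and 5 lower, against 6.37% of all 12911 genes, of which 2.38% were higher and 3.99% lower, and the median log2 change was 0.01 against -0.03 over all genes. Of the 16 genes with a called microexon, 1 was called: Cacna2d1 rose from 14.0, 13.9 and 13.0 RPKM to 16.1, 19.0 and 18.4 RPKM (log2 change 0.37, SE 0.08, adjusted p = 0.0413), a call lost without any 1 of the WT libraries or Rbpms KO replicate 2 or 3, with an adjusted p of up to 0.163. Pdlim5 was at 83.1, 81.8 and 99.5 RPKM in WT and at 101, 121 and 118 RPKM in Rbpms KO and was not called (adjusted p = 0.081).

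Among 23 genes of known splicing regulators, 21 were matched and 17 tested. None rose and 3 fell, beside 2.38% and 3.99% of all genes tested, and the 3 are the targeted gene Rbpms, its paralogue Rbpms2 and Celf1. Celf1, which encodes a regulator of fetal heart splicing, was at 31.6, 31.8 and 30.5 RPKM in WT and at 22.5, 25.9 and 25 RPKM in Rbpms KO (log2 change -0.35, SE 0.08, adjusted p = 0.0353), and the call was lost without any 1 of 5 of the libraries, with an adjusted p of up to 0.174. Rbfox1, which promotes inclusion of many muscle and neuronal microexons, was at 3.36, 3.48 and 2.47 RPKM in WT and at 1.87, 2.26 and 1.57 RPKM in Rbpms KO and was not called (adjusted p = 0.0673). Srrm4, the main activator of neuronal microexons, was at 0.104 to 0.260 RPKM over the 6 libraries and was too low to test. The part of these regulators in the inclusion differences was not tested.

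In the authors' deposited table, 31 of the 601 microexons had a false discovery rate below 0.05 (5.16%), against 1.23% of all exons at 1 event per exon. All 17 microexons called here were among them. Of the other 14, 7 were tested here and not called, and 7 had too few reads to be tested.

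The calls rest on few libraries. When each library was left out in turn, 3 to 12 microexons were called, 3 to 11 of them among the 17. Tnnt2 (30 bases), Rps24 and Ncam1 were called in all 6 fits, all 3 of them lower in the depleted set. Without expressing library 2 or depleted library 2 or 3, no microexon that was higher in the depleted set was called.

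**Figure D4:**
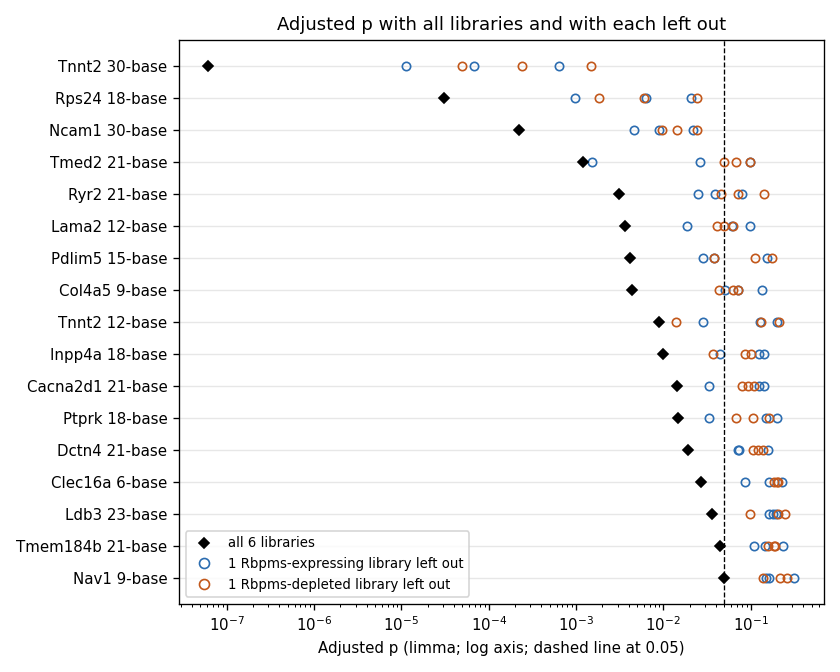
Limma adjusted p (x axis, log scale) of each called microexon with all 6 libraries (diamonds) and with 1 library left out (circles), with a dashed line at 0.05. Tnnt2 (30 bases), Rps24 and Ncam1 lie below the threshold in all 6 fits, and each of the others has at least 1 circle above it.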

How the data were processed

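RNA of 3 WT and 3 Rbpms KO ventricle samples was sequenced, and gene levels and splicing events were deposited as tables. Per the submitters' processing notes, FastQC 0.11.4, featureCounts 1.6.0 and edgeR 3.30.1 were used with builds GRCm38 and mm10. The splicing table is named after the program rMATS, whose version is, like the aligner, not given in the sources used here. The authors deposited gene levels as RPKM. Per the file headers, the splicing table gives inclusion levels (fractions from 0 to 1), junction read counts, the authors' p-values and false discovery rates, and the difference between sets as a score. The deposited log2 fold changes were not used for any result, and that table served to match gene IDs to symbols.

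The depth behind each level is its number of junction reads, which are not independent molecules, so limits at 0 cover counting error only. Each cell holds 3 counts, and 11389 of 56560 cell pairs had lost their commas. Their digits were split so that the counts gave the printed levels within 0.00051. More than 1 split was possible in 4716.

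Of several events of an exon, the one with most reads was kept. Inclusion levels were tested by limma 3.58.1 (R 4.3.3), its variance trend following the log2 mean of reads, using the filters stated with the results. Genes were tested as log2(RPKM + 0.5) with limma, keeping those at 0.5 RPKM or more in at least 3 libraries, so a log2 change understates changes of low genes. Tables were made with Python 3.11.15 and pandas 2.3.3. The fit of inclusion levels was also run on simulated levels, with changes placed only in exons of intermediate level and a single assumed spread. No result above rests on that run. Alternatives were another scale, other filters, reads on the exon, every event, the authors' false discovery rate and leaving out each library. For genes they were other pseudocounts, no filter, rescaling and a replicate block.

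Named microexons are all those called, the 3 next in size whose sets do not overlap, and the 3 with most reads. Named genes are Rbpms, Rbpms2, splicing regulators and host genes. The members and gene lists were chosen with earlier results of these data known. Other event types were not used here.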

Additional observations from a re-analysis of the deposited data

How the results depend on the processing

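Read depth or a missing level kept 125 and 61 of the 601 microexons out of the test. Of the 17 called with the main settings, 9 remained on the arcsine scale (9 called in all, and 63 over all exons). With log2 ratios of inclusion to skipping reads 7 remained (8 called, and 53 over all exons). With reads on the exon added, 9 were called (55 over all exons), and with no filter on mean level 6 of 415 tested were called, all lower in the depleted set (54 over all exons, against 86). The authors' false discovery rate called 31 (304 over all exons). With at least 20 reads 14 of 143 tested were called (91 of 3082 over all exons). The called exons of Inpp4a, Ldb3 and Tmem184b had fewer reads and were not tested there. With no minimum 17 of 295 were called (87 of 6870 over all exons), and with every event 20 of 229 (113 of 5248). The number called with 1 library left out was 3 to 12 for microexons and 18 to 64 for all exons. Without expressing library 2, depleted library 2 or depleted library 3 it was 3, 3 and 4 for microexons. The median difference of microexons stayed between -0.002 and 0.008 where it was computed, and the event chosen for each named microexon kept its direction under these alternatives. Another event of the Pdlim5 15-base exon, not tested, lay the other way (mean level 0.989 against 0.938). Where calls were lost, the cause was not tested.

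Among genes, 10 host genes and 822 genes were called. Leaving out 1 library gave 2 to 13 and 192 to 868, with the fewest without WT replicate 2 (192) and WT replicate 1 (237). Without WT replicate 3, 868 genes were called. WT replicates 1 and 2 lay close together and apart from replicate 3 at some genes, such as Myh3 (2.38, 2.35 and 0.106 RPKM). At others they did not, as at Tnnt2 (1170, 1000 and 938 RPKM). Whether these 2 libraries are independent was not tested. Taking the mean of WT replicates 1 and 2 as 1 sample, chosen after seeing the data, gave 2 and 211. Other pseudocounts, no filter and rescaling kept both numbers within 1.5 times. With the replicate block 4 host genes and 545 genes were called. The samples share only a number, since the deviations of same-numbered samples correlated at 0.213, -0.271 and 0.122, and not every sample correlated best with its own number. No paired analysis was possible for the inclusion levels because the libraries of the splicing table carry no replicate number.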

Other observations

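Several microexons had a false discovery rate below 0.05 in the authors' deposited table and were not called here. The 15-base exon of Ssr1, a subunit of the translocon-associated complex of the endoplasmic reticulum, was included at 0.031, 0.036 and 0.037 in the expressing set and at 0.095, 0.148 and 0.104 in the depleted set. It was low throughout but higher in each depleted library, on 158 reads per library (difference 0.081, limma Benjamini-Hochberg adjusted p = 0.243). The 24-base exon of Rilpl1 was at 0.061, 0.017 and 0.000 against 0.160, 0.139 and 0.155, with no overlap (difference 0.125, adjusted p = 0.374). The 30-base exon of Arfgap1, a regulator of Golgi vesicle coats, was at 0.101, 0.165 and 0.097 against 0.044, 0.021 and 0.000 (difference -0.099, adjusted p = 0.535). The 18-base exon of Sel1l, of endoplasmic reticulum protein degradation, was at 1.000, 0.919 and 1.000 against 0.813, 0.709 and 0.874 (difference -0.174, adjusted p = 0.457).

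Of the 7 that had too few reads to be tested, the 21-base exon of Dtnb, a component of the dystrophin complex, was at 0.000, 0.440 and 0.000 in the expressing set and at 0.703, 1.000 and 0.863 in the depleted set, on 5.67 reads per library. The 24-base exon of Ttc28 was at 1.000, 1.000 and 0.696 against 0.203, 0.276 and 0.000, on 5 reads per library. In the fast skeletal troponin T gene Tnnt3, a 12-base exon was at 0.566, 0.148 and 0.777 against 0.000, 0.000 and 0.000, on 4.33 reads per library, while Tnnt3 itself was at 3.47, 3.47 and 1.74 RPKM in WT and at 6.04, 2.19 and 1.30 RPKM in Rbpms KO. At such depth a single read moves a level widely, and no difference is claimed for these exons.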
